A study of Homo sapiens with 4 samples.

Results

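The 9 genes described here were NQO1, HMOX1, GCLC, GCLM, TXNRD1, SRXN1, GPX4, FTH1 and FTL, which are known targets of the transcription factor NRF2, the ferritin subunits and the central enzyme of ferroptosis defence. They were taken by their symbols from 26475 genes in the tables, and they were chosen with earlier results of these data known. RNA was measured in mammospheres, the floating colonies that breast cancer cells form in serum-free medium, of MDA-MB-468, an established triple-negative breast carcinoma line. All cells carried Cas9 and a guide vector that doxycycline switches on, and were pools sorted for both vectors by fluorescence, not single clones. CTL cells carried the control vector and were labelled wild type, either untreated (CTL) or given doxycycline (CTL+dox). gRNA2 cells carried a guide to TCOF1, which encodes the nucleolar protein treacle. Untreated gRNA2 cells were labelled wild type, and gRNA2 cells given doxycycline (gRNA2+dox) were labelled as TCOF1 knockout. Each condition was 1 library, grown on several plates, so no difference below had a replicate check and no p-value was computed. Ranges in parentheses after a value are 95% intervals, and they cover counting error only, for reads that are not independent molecules. Each library enters several comparisons, which are therefore not independent of each other.

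NRF2, encoded by NFE2L2, is held at a low level by KEAP1, which presents it to a CUL3 ubiquitin ligase. When electrophiles or oxidants modify KEAP1, NRF2 accumulates, pairs with a small MAF protein and binds antioxidant response elements, while BACH1 competes for the same elements. Ferritin stores iron in a shell built of heavy (FTH1) and light (FTL) subunits, and its translation is held back by iron regulatory proteins bound to an iron-responsive element near the start of each transcript. Ferroptosis is a form of cell death driven by iron-dependent peroxidation of membrane lipids, and the selenoenzyme GPX4 opposes it by reducing lipid hydroperoxides with glutathione.

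The sequences that link these genes to NRF2 and to iron were looked up in windows from 250 bases before to 50 bases after each start site (RefSeq, GRCh38.p14). There were 10 windows for 7 of the 9 genes, and none for HMOX1 or FTH1. The core of the antioxidant response element was searched as TGACNNNGC on both strands. It was found in 3 of the 10 windows, belonging to GCLM and TXNRD1, and in 4687 of all 35116 windows (13.3%). Sequence beyond these windows was not searched, so a gene without a match here may hold the element elsewhere. The GCLM match lay at positions -34 to -26 from the start site (chr1:93909440-93909480, gene on the minus strand). TXNRD1 held matches at -99 to -91 from 1 start site (chr12:104215664-104215704, plus strand) and at -102 to -94 from the other (chr12:104286914-104286954, plus strand), and a further match that spanned the upstream start (-8 to 1) is not shown. They are printed 5′ to 3′ on the gene's strand with the core in capitals, in the reverse orientation for GCLM and for the downstream TXNRD1 start, because these elements define the NRF2 target class.
GCLM: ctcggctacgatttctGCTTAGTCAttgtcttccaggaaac
TXNRD1, upstream start: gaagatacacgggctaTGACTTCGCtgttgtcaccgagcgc
TXNRD1, downstream start: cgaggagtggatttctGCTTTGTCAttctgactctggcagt
The hexamer of the iron-responsive element loop was searched as CAGTGN in the first 50 transcribed bases and on the transcript strand alone. It was found in 6.36% of all windows and in FTL at positions 39 to 44 (chr19:48965335-48965358, plus strand). It is shown in capitals because this element governs the translation of ferritin, which was not measured here.
FTL: ctcttgcttcaaCAGTGTttggac
A match of letters is a description, and no binding was measured.

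The libraries held 19960644 (CTL), 22467410 (CTL+dox), 26322847 (gRNA2) and 22168624 (gRNA2+dox) reads counted on genes, and all 9 genes were among the 15204 that had at least 10 reads in at least 1 library. TCOF1 itself had 1019, 754, 1318 and 437 reads in CTL, CTL+dox, gRNA2 and gRNA2+dox, or 50.4, 33.5, 50.1 and 20.0 CPM (the read count relative to library size, scaled by trimmed mean of M values). It was lowest in the library labelled knockout, and it was also lower in CTL+dox than in CTL, with a log2 ratio of -0.59 (-0.73 to -0.45). All 10 epithelial and basal-like markers tested, from EPCAM and CDH1 to KRT5, KRT14, KRT17 and EGFR, had at least 4351 reads in each library, with a summed level of 20191 to 22467 CPM. Of the receptors that define the triple-negative class, PGR had at most 7 reads and ESR1 at most 13. ERBB2, whose overexpression such a line lacks, was at 12.4 to 14.7 CPM. The 10 markers of immune, stromal and endothelial cells summed to 116 to 139 CPM, almost all of it COL1A1 and CD68, a lysosomal protein that is not limited to macrophages, and to 3.25 to 3.87 CPM without these 2 genes. In bulk RNA, fewer cells of a type and less RNA per cell cannot be told apart.

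FTH1, the heavy ferritin subunit with ferroxidase activity (chromosome 11, 61964285 to 61967634), was the gene with the most reads in every library. Its counts were 185379 (CTL), 235747 (CTL+dox), 281328 (gRNA2) and 331740 (gRNA2+dox), the order kept for all values below. These were 0.929%, 1.05%, 1.07% and 1.496% of all gene counts, and normalised levels of 9161, 10479, 10684 and 15194 CPM. The gRNA2+dox library stood above the other 3, which lay within a narrower span. The log2 ratio of gRNA2+dox to CTL was 0.73 (0.72 to 0.74), to gRNA2 0.51 (0.50 to 0.52) and to CTL+dox 0.54 (0.53 to 0.54), or 1.66-fold, 1.42-fold and 1.45-fold. Doxycycline in CTL cells gave 0.19 (0.19 to 0.20) and the untreated gRNA2 pool gave 0.22 against CTL (0.21 to 0.23). The doxycycline log2 ratio was 0.31 larger in gRNA2 cells than in CTL cells (0.30 to 0.33).

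**Figure D1:**
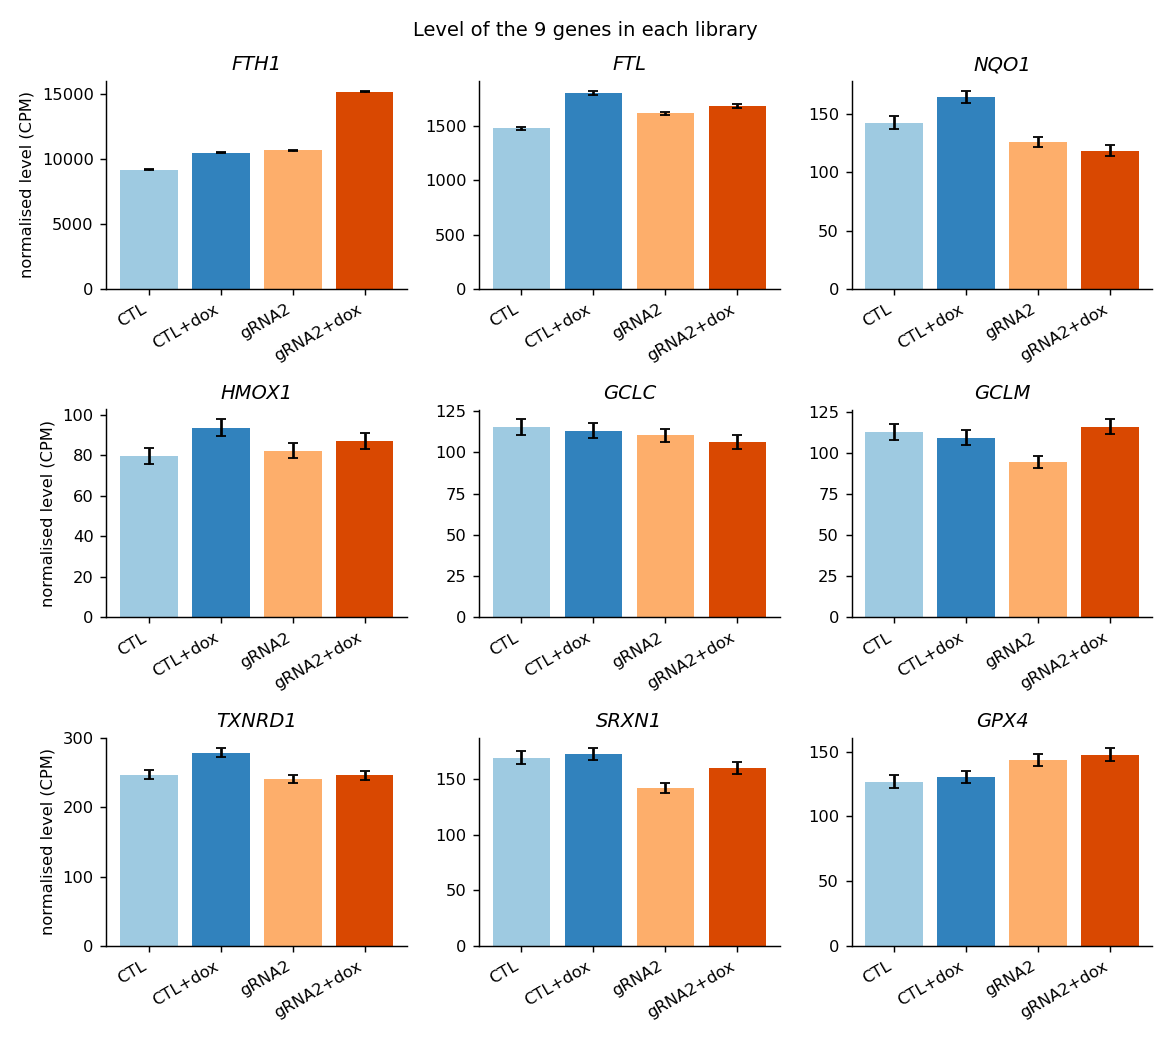
Normalised level (CPM, y axis from 0, a different scale in each panel) of the 9 genes in the 4 libraries, as bars with exact 95% Poisson intervals of the reads. FTH1 stands at 15194 CPM in gRNA2+dox against 9161 to 10684 CPM in the other 3 libraries, while FTL lies between 1476 and 1802 CPM and the remaining 7 genes each vary by at most 1.39-fold.

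A gene was called higher or lower when its log2 ratio was at least 0.5 in size. FTH1 was the only 1 of the 9 genes called higher when gRNA2+dox was compared with gRNA2, CTL+dox and CTL, where 5.14%, 6.76% and 5.49% of the 15204 genes were called higher. None of the 9 was called lower in these comparisons, where the shares over the 15204 genes were 6.7%, 8.9% and 8.95%. The same shares are the background for the calls of the gene lists below. The call against gRNA2 sat at the edge of the cutoff: with total counts as the only scaling the log2 ratio was 0.49, and without the filter on low counts it was also 0.49, both below it. Since genes with few reads have wide counting error, FTH1 was also set against abundant genes, a choice made after its values were seen. Of 4429 genes with at least 1000 reads in every library, 22 were called higher against CTL, 17 against gRNA2 and 53 against CTL+dox, and 13, 16 and 36 of them had a larger log2 ratio than FTH1. In the same order, 3, 2 and 19 of the 4429 genes were called lower. All 9 genes belong to this set, where a call of lower was rare, so the absence of such calls does not set them apart. Of the 100 genes with the most reads, FTH1 was the only 1 called higher in each of these 3 comparisons.

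FTH1 has many near-identical pseudogenes, and reads that map to several places were not counted. Such reads were 4.85%, 4.02%, 4.57% and 3.39% of each library in the order CTL, CTL+dox, gRNA2 and gRNA2+dox, lowest in the library where FTH1 was highest. The annotation (GENCODE 44) names 25 pseudogenes of FTH1, of which 2 had a row in the tables, with 0 to 4 reads for FTH1P3. Over the 110 tested genes with 10 or more named pseudogenes, a group chosen after the FTH1 values were seen, the median log2 ratio was -0.01 against CTL, 0.02 against gRNA2 and -0.12 against CTL+dox, and 0, 1 and 0 of them had a larger log2 ratio than FTH1. How many reads of FTH1 itself mapped to several places is not known, and their part in its values was not tested. On the opposite strand BEST1 shares exon sequence with FTH1 in that annotation, and it had 6 to 14 reads. Counting each strand separately added 78 to 106 reads to FTH1, at most 0.0421% of its count.

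FTL, the light subunit that favours iron core formation (chromosome 19, 48965309 to 48966879), had 29860, 40536, 42507 and 36681 reads, or 1476, 1802, 1614 and 1680 CPM. Its level was highest in CTL+dox and lowest in CTL, so it did not follow FTH1. The log2 ratio of gRNA2+dox to CTL was 0.19 (0.17 to 0.21), to gRNA2 0.06 (0.04 to 0.08) and to CTL+dox -0.10 (-0.12 to -0.08). Doxycycline in CTL cells gave 0.29 (0.27 to 0.31), the highest value of the 9 genes in that comparison, and the doxycycline log2 ratio was 0.23 smaller in gRNA2 than in CTL cells (difference -0.23, -0.26 to -0.20).

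The ratio of the subunits within a library does not depend on scaling between libraries. The reads of FTH1 per read of FTL were 6.21 (6.13 to 6.28), 5.82 (5.75 to 5.88), 6.62 (6.55 to 6.69) and 9.04 (8.95 to 9.14). The knockout library was thus 1.37-fold above gRNA2, 1.56-fold above CTL+dox and 1.46-fold above CTL, while the other 3 lay between 5.82 and 6.62. Per transcript length, FTH1 exceeded FTL 4.49-fold, 4.21-fold, 4.79-fold and 6.55-fold.

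**Figure D2:**
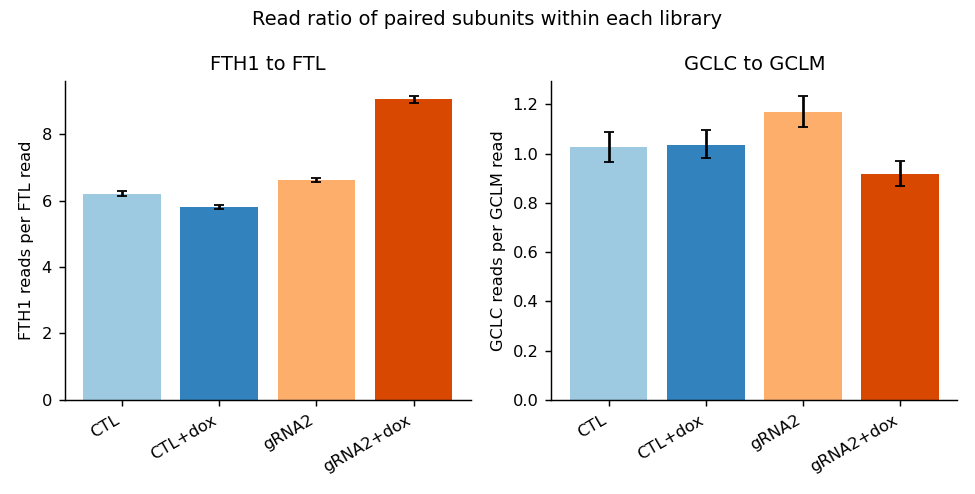
Reads of the first gene per read of the second within each library (y axis from 0), for the ferritin subunits (left) and the subunits of glutamate-cysteine ligase (right), with exact 95% intervals of the reads. The FTH1 to FTL ratio is 9.04 in gRNA2+dox and 5.82 to 6.62 in the other libraries, and the GCLC to GCLM ratio is lowest in gRNA2+dox (0.918) and highest in gRNA2 (1.17).

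Of 23 tested genes of iron and haem handling, none was called higher and 1 lower against gRNA2, and 1 higher and 2 lower against CTL+dox, with medians of 0.05 and -0.08 where all genes tested had medians near 0. TFRC, the transferrin receptor that brings iron into the cell, had 4196, 5497, 5354 and 4741 reads (207, 244, 203 and 217 CPM), and its log2 ratio in gRNA2+dox was 0.09 against gRNA2 (0.04 to 0.15) and -0.17 against CTL+dox (-0.23 to -0.11). NCOA4, the receptor that delivers ferritin to autophagy, was at 470 to 493 CPM. SLC40A1, the iron exporter ferroportin, had 11 reads in CTL (0.544 CPM) and 2, 0 and 0 in the other libraries, under the 3 reads taken as the limit of detection (0.114 to 0.148 CPM). HEPH, the ferroxidase hephaestin, had 94 and 104 reads in the CTL libraries and 22 and 7 reads in the gRNA2 libraries. It gave -1.32 in gRNA2+dox against gRNA2 (-2.85 to -0.10), and the untreated gRNA2 pool already gave -2.44 against CTL (-3.22 to -1.79). SLC25A37, the mitochondrial iron importer mitoferrin-1, was the gene of the lists whose pattern over the 4 libraries lay nearest to that of FTH1, but at a distance of 0.288 on the mean-centred log2 scale, the largest of the 9 nearest distances. It had 241, 256, 375 and 356 reads.

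None of the 13 regulators of NRF2 was called in any of the comparisons, where 4.76% to 9.08% of all genes tested were called in each direction. Each had at least 643 reads in every library, and calls were rarer among abundant genes. Of the 4429 genes with at least 1000 reads in every library, at most 53 were called in any 1 direction. RBX1 came nearest, at 0.48 in CTL+dox against CTL (0.34 to 0.61), and was at -0.36 in gRNA2+dox against CTL+dox (-0.49 to -0.23). NFE2L2, the gene of NRF2 itself, had 3489, 3807, 4655 and 3733 reads, or 172, 169, 177 and 171 CPM, and its log2 ratio in gRNA2+dox was -0.05 against gRNA2 (-0.11 to 0.01) and 0.01 against CTL+dox (-0.05 to 0.08). KEAP1 was at 267, 274, 249 and 256 CPM and BACH1 at 132, 138, 126 and 128 CPM. The furthest against gRNA2 was MAFF, a small MAF partner (142 CPM in gRNA2 and 176 in gRNA2+dox, log2 ratio 0.31), which rests on the level in gRNA2, itself at -0.45 against CTL, since MAFF in gRNA2+dox was at 0.00 against CTL+dox (-0.07 to 0.06) and -0.14 against CTL. SQSTM1, which sequesters KEAP1 and is itself an NRF2 target, was at 1185, 1212, 1253 and 1416 CPM, highest in the knockout library. NRF2 is controlled mainly through its protein, which was not measured here.

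NQO1, the quinone reductase widely read as the marker of NRF2 activity (chromosome 16, 69709401 to 69726560), had 2884, 3695, 3312 and 2589 reads, or 143, 164, 126 and 119 CPM. The knockout library was the lowest and the doxycycline control the highest, and each neighbour in this order differed by more than counting error. The log2 ratio of gRNA2+dox to CTL was -0.27 (-0.34 to -0.19), to gRNA2 -0.09 (-0.16 to -0.01) and to CTL+dox -0.47 (-0.54 to -0.40). NQO1 came nearest of the 9 genes to being called lower, and 9.66% of the genes tested lay further below it against CTL+dox. Doxycycline gave 0.20 in CTL cells (0.13 to 0.28), and the untreated gRNA2 pool gave -0.18 against CTL (-0.25 to -0.11). The doxycycline log2 ratio was therefore 0.29 smaller in gRNA2 than in CTL cells (difference -0.29, -0.39 to -0.19).

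HMOX1, the haem oxygenase that frees iron from haem and is restrained by BACH1 (chromosome 22, 35381096 to 35394207), had 1609, 2107, 2168 and 1903 reads, or 79.5, 93.7, 82.3 and 87.2 CPM. It was highest in CTL+dox and lowest in CTL, with 0.24 between them (0.14 to 0.33). Its log2 ratio in gRNA2+dox was 0.13 against CTL (0.04 to 0.23), 0.08 against gRNA2 (-0.01 to 0.17) and -0.10 against CTL+dox (-0.19 to -0.01).

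TXNRD1, the cytosolic selenoenzyme thioredoxin reductase (chromosome 12, 104215779 to 104350307), had 5002, 6279, 6355 and 5379 reads, or 247, 279, 241 and 246 CPM. CTL+dox alone stood out, and the other 3 libraries did not differ beyond counting error from their neighbours. Its log2 ratio in gRNA2+dox was 0.03 against gRNA2 (-0.02 to 0.08) and -0.18 against CTL+dox (-0.23 to -0.13). SRXN1, which repairs overoxidised peroxiredoxins (chromosome 20, 646615 to 653200), had 3426, 3882, 3732 and 3483 reads, or 169, 173, 142 and 160 CPM. Here the untreated gRNA2 pool was the lowest, with -0.26 against CTL (-0.32 to -0.19), and gRNA2+dox gave 0.17 against gRNA2 (0.10 to 0.24) but -0.11 against CTL+dox (-0.18 to -0.05).

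Of 24 other NRF2 targets, none was called in either direction against gRNA2 and 2 were called lower against CTL+dox, PIR with 3 to 13 reads per library and the aldo-keto reductase AKR1C1. AKR1C1 had 1992, 2552, 1862 and 1589 reads, and its log2 ratio was -0.64 against CTL+dox (-0.73 to -0.55) but 0.04 against gRNA2 (-0.06 to 0.14), so that both gRNA2 libraries were below both CTL libraries. The median over the 24 genes was 0.01 against gRNA2 and -0.07 against CTL+dox.

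**Figure D3:**
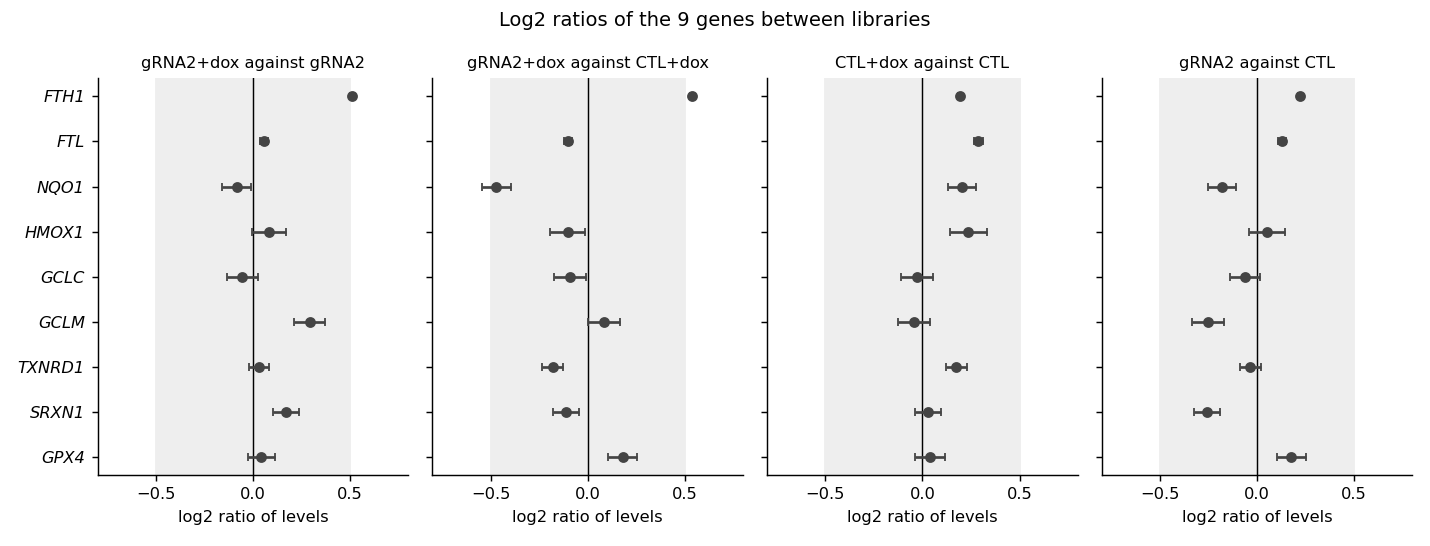
Log2 ratio of normalised levels (x axis) of the 9 genes in 4 comparisons, as points with 95% intervals from counting error, and the range inside the cutoff of 0.5 shaded. FTH1 lies just past the cutoff in both knockout comparisons (0.51 and 0.54), NQO1 is furthest below 0 against CTL+dox (-0.47), and all 9 genes lie inside the shaded range for CTL+dox against CTL and gRNA2 against CTL.

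GCLC and GCLM, the catalytic and modifier subunits of glutamate-cysteine ligase, which makes the rate-limiting step of glutathione synthesis, had different patterns. GCLC (chromosome 6, 53497341 to 53545101) had 2333, 2547, 2907 and 2319 reads, or 115, 113, 110 and 106 CPM, and neighbours in this order did not differ beyond counting error. The lowest library, gRNA2+dox, gave -0.12 against CTL (-0.20 to -0.03), -0.09 against CTL+dox (-0.17 to -0.01) and -0.06 against gRNA2 (-0.14 to 0.02). GCLM (chromosome 1, 93885199 to 93909430) had 2277, 2457, 2489 and 2527 reads, or 113, 109, 94.5 and 116 CPM, with the untreated gRNA2 pool the lowest and no neighbours among the other 3 separated beyond counting error. The log2 ratio of GCLM in gRNA2+dox to that in CTL was 0.04 (-0.04 to 0.12), to CTL+dox 0.08 (0.00 to 0.16) and to gRNA2 0.29 (0.21 to 0.37). The last of these rests on the level in gRNA2, which was itself at -0.25 against CTL (-0.33 to -0.17). The doxycycline log2 ratio of GCLM was 0.34 larger in gRNA2 than in CTL cells (0.22 to 0.45), an interval that holds the value of FTH1 (0.31). Reads of GCLC per read of GCLM were 1.02 (0.967 to 1.09), 1.04 (0.980 to 1.096), 1.17 (1.11 to 1.23) and 0.918 (0.867 to 0.971).

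Of 19 other genes of glutathione synthesis and use, none was called higher in gRNA2+dox against gRNA2 or CTL+dox, and 2 and 3 were called lower. Over all genes tested, 5.14% and 6.76% were called higher and 6.7% and 8.9% lower. SLC7A11, the cystine importer whose loss starves glutathione synthesis and favours ferroptosis, had 710, 828, 980 and 683 reads (35.1, 36.8, 37.2 and 31.3 CPM), with the lowest level in the knockout library. Its log2 ratio was -0.25 against gRNA2 (-0.39 to -0.11) and -0.23 against CTL+dox (-0.38 to -0.09), short of the cutoff. GGT1, which cleaves extracellular glutathione, was called lower against both, with 154, 244, 207 and 91 reads. Its log2 ratio was -0.91 against gRNA2 (-1.29 to -0.55) and -1.38 against CTL+dox (-1.74 to -1.03). GPX2 was also called lower, on 15, 22, 15 and 8 reads, and its interval against gRNA2 included 0 (-2.08 to 0.69). GSTP1, a glutathione transferase, had 709, 857, 701 and 537 reads and was called lower against CTL+dox (-0.63, -0.79 to -0.47) and not against gRNA2 (-0.11, -0.28 to 0.05). Against CTL+dox, 18 of the 19 genes lay below 0 with a median of -0.25, and against gRNA2 11 did, with a median of -0.11, where 50.1% and 50.4% of all genes tested lay below 0. The comparison with CTL+dox also moved with transcript length, as described below.

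Of 15 tested thioredoxins, peroxiredoxins, dismutases and their partners, SOD2, the mitochondrial manganese superoxide dismutase, was the only gene called higher in gRNA2+dox. It had 3896, 4808, 5236 and 8285 reads, or 193, 214, 199 and 379 CPM. The knockout library was above the other 3, which lay close together. The log2 ratio of gRNA2+dox to CTL was 0.98 (0.92 to 1.03), to gRNA2 0.93 (0.88 to 0.98) and to CTL+dox 0.83 (0.78 to 0.88), and doxycycline in CTL cells gave 0.15. SOD1, the cytosolic enzyme, was at 146, 168, 144 and 141 CPM, and CAT, catalase, at 107, 114, 94.5 and 81.6 CPM. MSRA, a methionine sulfoxide reductase, was called lower against CTL+dox on 24, 31, 10 and 9 reads. Against CTL+dox, 14 of the 15 genes lay below 0, with a median of -0.23, and against gRNA2 9 did, with a median of -0.01. Over all genes tested, 50.1% and 50.4% lay below 0. Short transcripts as a class lay lower against CTL+dox, as described below.

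GPX4 (chromosome 19, 1103994 to 1106779) had 2564, 2933, 3773 and 3223 reads, or 127, 130, 143 and 148 CPM. Its levels followed the cell pool: both gRNA2 libraries were above both CTL libraries, and the interval with doxycycline included 0 in each pool. The untreated gRNA2 pool gave 0.18 against CTL (0.10 to 0.25), doxycycline gave 0.04 in gRNA2 cells (-0.03 to 0.11) and 0.04 in CTL cells (-0.04 to 0.12), and the difference of the doxycycline log2 ratios was 0.00 (-0.10 to 0.10). GPX4 was highest in the knockout library, with 0.18 against CTL+dox (0.11 to 0.25), a comparison that also holds the difference between the pools. Per transcript length GPX4 was the most abundant of the 7 genes other than ferritin, at 149 to 173 CPM per kilobase, against 62.5 to 72.3 for TXNRD1, 56.1 to 68.3 for SRXN1, 47.0 to 65.2 for NQO1, 51.2 to 60.3 for HMOX1, 28.1 to 30.5 for GCLC and 19.4 to 23.7 for GCLM.

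Of 24 other genes of lipid peroxidation and ferroptosis, 1 was called higher against both gRNA2 and CTL+dox, ALOX5, and 1 lower against CTL+dox, ALOX15, both lipoxygenases with few reads. ALOX5 had 8, 7, 23 and 31 reads, and its interval against gRNA2 included 0 (0.69, -0.12 to 1.55). ALOX15 had 12, 12, 9 and 7 reads. ACSL4, which loads polyunsaturated fatty acids into the lipids that ferroptosis attacks, had 503, 639, 620 and 487 reads, with a log2 ratio of -0.08 against gRNA2 (-0.25 to 0.10) and -0.35 against CTL+dox (-0.52 to -0.18). AIFM2, the GPX4-independent suppressor also called FSP1, had 337, 399, 366 and 309 reads, with 0.03 against gRNA2 (-0.20 to 0.25) and -0.33 against CTL+dox (-0.54 to -0.11). SAT1, a polyamine acetyltransferase, was at 1969, 2119, 1943 and 2326 CPM. Of 8 tested genes of selenoprotein synthesis, on which GPX4 and TXNRD1 depend, 1 was called higher against gRNA2 (SEPSECS, on 38 to 56 reads, 0.55, -0.03 to 1.15) and none against CTL+dox.

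Over all 7 lists, 126 of 129 genes were tested (TXNIP and FTMT had at most 2 reads in any library, and SELENOP was not analysed here). Against gRNA2, 3 were called higher (SOD2, ALOX5 and SEPSECS) and 3 lower (GGT1, GPX2 and HEPH). Against CTL+dox, 3 were called higher and 9 lower. Over all genes tested, 5.14% were called higher and 6.7% lower against gRNA2, and 6.76% and 8.9% against CTL+dox. The lists differed between the 2 references in their median. Their median was 0.01 against gRNA2, with 65 of 126 above 0, and -0.11 against CTL+dox, with 38 of 126 above 0. CTL+dox most often held the highest level: that of 5 of the 9 genes (NQO1, HMOX1, TXNRD1, SRXN1 and FTL) and of 67 of the 126 list genes, against 29.6% of all genes tested. For SRXN1 the lead over CTL was within counting error (0.03, -0.04 to 0.09). The lowest level of the list genes was most often in gRNA2 (47 of 126, 37.3%, against 24.7% of all genes tested). For gRNA2+dox it was 39 (31.0% against 25.7%). Among the 9 genes, CTL was lowest for 4 and gRNA2 for 3. Against CTL, the CTL+dox library gave the list genes a median of 0.09 and 92 of 126 above 0. None of the 9 genes was called for CTL+dox against CTL (over all genes 4.76% higher and 6.04% lower), for gRNA2 against CTL (4.97% and 6.85%) or for the difference of the doxycycline log2 ratios (8.52% and 9.08%).

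Transcript length moved with this comparison. For CTL+dox against CTL, all 33 list genes with a canonical transcript of up to 1500 bases lay above 0, with a median of 0.18, against 36 of 56 of intermediate length and 23 of 37 of at least 4000 bases. Over all 487 short genes with at least 1000 reads in every library, 81.9% lay above 0 with a median of 0.10, and over 1866 long ones 40.1% did, with a median of -0.04. Against CTL+dox, 3 of the 33 short list genes lay above 0 in gRNA2+dox, and 35.7% of the 487 short abundant genes. FTH1, FTL and GPX4 are short as well, with canonical transcripts of 1203, 871 and 851 bases. The 487 short abundant genes were a group chosen after the values were seen. Of them, 1 had a larger log2 ratio than FTH1 in the knockout library against CTL, 3 against gRNA2 and 1 against CTL+dox. The part of transcript length in the values of the 9 genes was not tested.

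**Figure D4:**
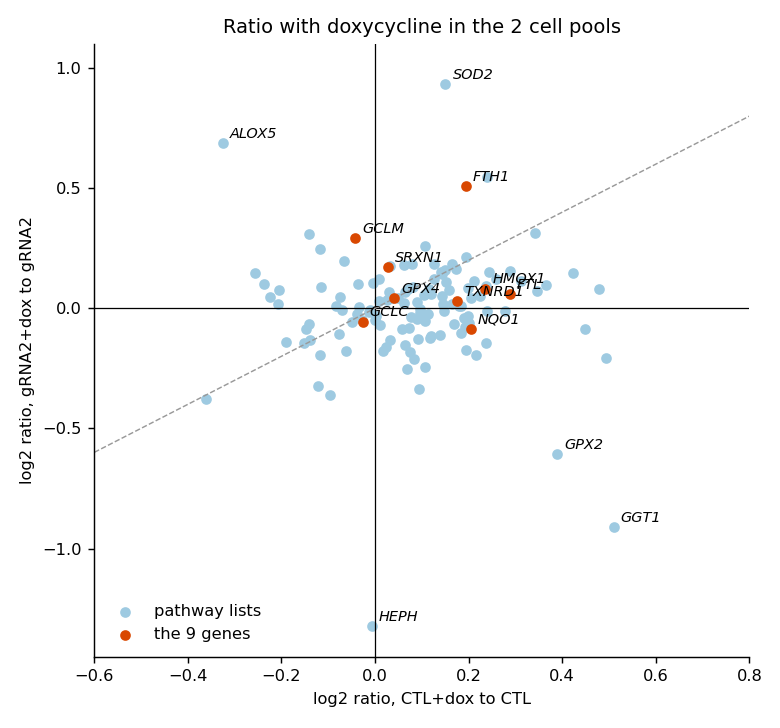
Log2 ratio with doxycycline in CTL cells (x axis) and in gRNA2 cells (y axis) of the 9 genes (orange) and of 124 of the 126 list genes (blue; PIR and SLC40A1 fall outside the axes). Points on the dashed line have the same ratio in both pools. FTH1 (0.19, 0.51), GCLM (-0.04, 0.29) and SOD2 (0.15, 0.93) lie above the line, and NQO1 (0.20, -0.09) and GGT1 (0.51, -0.91) lie below it.

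The 9 genes did not share a pattern over the libraries. gRNA2+dox was the lowest library for 2 of them (NQO1 and GCLC) and the highest for 3 (GCLM, GPX4 and FTH1), where 25.7% and 24.8% of all genes tested had it lowest or highest. For GCLC, GCLM and GPX4 the next library lay within counting error. With total counts as the only scaling, gRNA2+dox was the highest for 2 (GCLM was no longer among them), and it was lowest for 4631 and highest for 3023 of the 15204 genes, against 3910 and 3769 as scaled here. Their highest and lowest levels differed from 1.09-fold for GCLC to 1.66-fold for FTH1. The closest pair was HMOX1 and FTL, at a distance of 0.0578 over the 4 mean-centred log2 levels, and the furthest pair was NQO1 and FTH1, at 0.82. Among 108 list genes with at least 100 reads in every library, the nearest to NQO1 was PRDX4 (0.053), to HMOX1 TXN (0.0395), to GCLC CISD1 (0.0333), to GCLM GLRX5 (0.117), to TXNRD1 TALDO1 (0.0377), to SRXN1 PRDX1 (0.0495), to GPX4 OSGIN1 (0.043) and to FTL TXN (0.0808). With 4 libraries these distances are a description only.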

How the data were processed

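The deposited values were whole-number read counts per gene symbol, not normalised, which the authors made by trimming adaptors with fastp and counting with STAR. The submitters' processing notes name hg38. The annotation and the strandedness of the kit are not given in the sources used here. The unstranded count was used, since reads fell on both strands alike (49.0% to 49.1% on the first), and the stranded columns served only the check of FTH1. Rows for reads on no single gene were left out, so 79.7% to 81.0% of the reads of each library remained. Counts were scaled with TMM factors (edgeR 4.0.16, for scaling only) over genes with 10 or more counts in some library. Log2 ratios used a prior count of 0.5. Intervals were exact 95% Poisson or Clopper-Pearson, or from Poisson error for differences of ratios. Gene positions and sequences came from RefSeq (GRCh38.p14) and transcript lengths from GENCODE 44. The 9 genes and the lists were chosen with earlier results of these data known. Named from each list were set genes and up to 4 genes past the cutoff against both gRNA2 and CTL+dox. Other list genes were named after their values were seen. The ratio step was run on simulated Poisson counts with known library totals, which tests neither the scaling nor variation between cultures. Alternatives were size factors from DESeq2 1.42.0, no scaling beyond total counts, no filter or 50 counts, a prior count of 5, libraries thinned to 19960644 reads and a cutoff of 1.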

Additional observations from a re-analysis of the deposited data

Results flagged for a closer look

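NQO1 had log2 ratios with doxycycline of opposite sign in the 2 pools, -0.09 in gRNA2 cells and 0.20 in CTL cells, a difference of -0.29. GGT1 did so as well, with -0.91 in gRNA2 cells and 0.51 in CTL cells, a difference of -1.42. They were not the only genes with opposite signs. MAFF had 0.31 in gRNA2 cells and -0.14 in CTL cells (difference 0.45), and MAFK 0.15 and -0.26 (difference 0.40). GCLM had 0.29 and -0.04 (difference 0.34). With 1 library per condition, none of these differences was tested across replicates.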

How the results depend on the processing

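No paired analysis was possible because 1 library stands for each condition, and no replicate could be left out. The log2 ratios of the 9 genes moved by at most 0.0435 under the alternatives, and 3 values within 0.05 of 0 changed sign under some of them (GCLM and TXNRD1 in gRNA2+dox against CTL, and the doxycycline difference of GPX4). FTH1 against gRNA2 ranged from 0.49 to 0.51, and it was not called with total counts only or without the filter (0 of the 9 genes higher), nor with a cutoff of 1 against gRNA2, CTL+dox or CTL (0 each). The counts over all genes followed the filter and cutoff. They are given as higher and lower in gRNA2+dox against gRNA2, gRNA2+dox against CTL+dox, gRNA2+dox against CTL, CTL+dox against CTL, gRNA2 against CTL, and the difference of the doxycycline log2 ratios, in that order. Without a filter (21226 genes) they were 2502 and 3225, 2865 and 3351, 2667 and 3263, 2671 and 2731, 2702 and 2783, and 3551 and 4068. With at least 50 counts (12467 genes) they were 226 and 350, 386 and 587, 280 and 543, 172 and 233, 192 and 309, and 453 and 550. With a cutoff of 1 they were 219 and 296, 297 and 481, 268 and 462, 217 and 262, 212 and 334, and 491 and 519. The subunit ratios differed by less than counting error when, chosen after seeing the data, libraries were thinned. Adding pseudogene reads could not move the ferritin ratio, because each of these rows held at most 4 reads. It was therefore no test of reads that map to several places.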
